A study of Homo sapiens with 38 samples.

Results

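The sites described here are the places in the genome where the DNA-binding domain (DBD) of CTCF and full-length Sp1 gave overlapping CUT&RUN peaks. They were chosen by measured peak positions, as the peaks of the CTCF DBD mouse anti-FLAG list that shared at least 1 bp with a peak of the Sp1 WT mouse anti-FLAG list. This rule selected 200 of the 649 CTCF DBD peaks (30.8%, 95% Wilson interval, 27.4 to 34.5%), and the same 200 sites took up 3.88% (3.39 to 4.45%) of the 5151 Sp1 WT peaks. Each shared CTCF DBD peak overlapped a Sp1 WT peak of its own, with 200 different Sp1 WT peaks on the other side. What follows gives their genes, ranks, sequences and summits, and asks in which other lists they were found.

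CTCF is an insulator protein whose zinc fingers recognise a long, well-defined DNA motif, and it holds the bases of chromatin loops together with cohesin. Sp1 is a zinc finger activator of housekeeping genes, and its DBD binds GC boxes, short G-rich elements in the CpG island promoters of many such genes. Outside its DBD, Sp1 is largely an intrinsically disordered region (IDR), which recruits coactivators. CTCF is known to occupy some promoters too, so that the motifs of both factors can lie near the same start of transcription.

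CUT&RUN directs a nuclease to an antibody-bound protein in permeabilized cells, and the DNA cut out next to it is sequenced. All samples were U2OS osteosarcoma cells with an endogenous knock-in V5-Halo-SP1, derived from a homozygous knock-in clone, and all were given doxycycline at 1 µg/ml for 36 h, sorted by flow cytometry and kept in doxycycline for a further 36 h. The parental line (CTRL) carried no transgene, and the other lines carried a doxycycline-inducible transgene at the AAVS1 safe harbor locus, which coded for Sp1 WT, the Sp1 DBD, a mutant Sp1, the CTCF DBD, LacI, SNAPf-NLS or a chimera. The chimeras were Sp1 IDR–CTCF DBD, Sp1 IDR–LacI and EWS IDR–Sp1 DBD, where EWS is an RNA-binding protein, and every transgene product had a FLAG tag and a nuclear localization signal. Mouse anti-FLAG reads the transgene product in each of these lines, and anti-V5 from rabbit or mouse reads endogenous Sp1, in the parental, Sp1 WT, Sp1 IDR–LacI and Sp1 IDR–CTCF DBD lines. Anti-FLAG in the CTCF DBD line therefore did not read the endogenous CTCF or the tagged endogenous Sp1 of the same cells.

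Each of the 19 peak lists, from 38 samples, was made by the authors from the 2 replicates of a line and antibody, so a list has no replicates of its own. A peak carries a −log10 p in each replicate, and its ranking value is the smaller of the replicates' values. The depth behind the lists is unknown here. Peaks are sites and not replicates, so that every interval and p-value below covers counting error over peaks and compares lists, not cultures, and the lists also share merged control libraries from peak calling. Of the shared sites, 32 (16%) lay in repeated sequence, where at least 50% of the 31-base words around the summit occur elsewhere in hg38, against 95 (21.2%) of the other 449 CTCF DBD peaks. Of the shared sites, 6 (3%) overlapped a peak of the SNAPf-NLS anti-FLAG list, against 30 (6.68%) of the other CTCF DBD peaks, and 0 overlapped the 22 parental mouse anti-FLAG peaks, with an upper Wilson limit of 1.88%.

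The DNA under these summits shows what was shared. All sequences are hg38, + strand, read 5′ to 3′. The first set holds the 4 sites with a CTCF core motif within 100 bp of the CTCF DBD summit, and capitals mark the core. They lie at chr16:10957-10986 (upstream of the long noncoding RNA gene DDX11L16), chr11:448417-448446 (PTDSS2), chr1:186375606-186375635 (TPR) and chr16:66873293-66873322 (NAE1).
DDX11L16: gtggccagcGCCCCCTGCTGGcgccggggc
PTDSS2: aatgtgagcGCCACCTGCTGGgatgggaag
TPR: gacactgagCCACTAGAGGGCatcggtccc
NAE1: ccgggccgcGCCCCCTGCTGGccgtgtccc

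The second set shows sites with a GC box (GGGCGG, or CCGCCC on the other strand, in capitals) beside the CTCF DBD summit and no CTCF core in the window. Within 100 bp of that summit a box lay at 97 of the 200 sites and a core at 4, so many sites had neither. In the shorter runs printed here, QRICH1 (chr3:49094205-49094325) had 2 boxes, ZNF808 (chr19:52527312-52527432) had 1 and MUC3A (chr7:100966227-100966347) had 2. MUC3A had 3 within 100 bp of the summit. The CTCF DBD summit is base 61 of each run, and the Sp1 WT summit is base 117 at QRICH1.
QRICH1: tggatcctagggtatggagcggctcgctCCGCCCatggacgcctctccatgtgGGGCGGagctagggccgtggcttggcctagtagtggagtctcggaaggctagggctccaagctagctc
ZNF808: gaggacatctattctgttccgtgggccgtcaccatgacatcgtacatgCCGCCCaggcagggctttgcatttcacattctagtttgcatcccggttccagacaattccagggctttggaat
MUC3A: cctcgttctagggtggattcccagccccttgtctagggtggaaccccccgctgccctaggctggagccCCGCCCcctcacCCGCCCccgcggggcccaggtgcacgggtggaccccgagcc

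The last set shows 2 of the 5 sites whose summits were at most 1 bp apart, both with neither motif in the window (another of the 5 had a GC box). At KAT2B (chr3:20040054-20040174) the CTCF DBD summit is base 61 and the Sp1 WT summit base 62. On chromosome 16 (chr16:34454071-34454191) both summits are base 61 of a satellite repeat, and capitals mark the word GAATG, found 9 times in the run. This satellite peak was also in the SNAPf-NLS list.
KAT2B: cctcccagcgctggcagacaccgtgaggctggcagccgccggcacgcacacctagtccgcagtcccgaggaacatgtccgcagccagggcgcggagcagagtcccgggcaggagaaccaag
satellite: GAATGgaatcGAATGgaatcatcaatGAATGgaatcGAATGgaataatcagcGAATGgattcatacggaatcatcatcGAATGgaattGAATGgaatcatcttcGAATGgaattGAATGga

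By ranking value the shared sites were ordinary CTCF DBD peaks and somewhat strong Sp1 WT peaks. Since these lists chose the sites, their values are given as a description. In the CTCF DBD list, the ranking value of the shared sites ran from 6.97 to 25.9 with a median of 10.2, and that of the other peaks from 6.95 to 33.2, also with a median of 10.2. The shared sites were spread over the CTCF DBD list, where they made up 33.7% of the strongest 25% of the peaks, 27.8% and 30.2% of the next bands and 31.5% of the weakest. In the Sp1 WT list, the shared peaks had a median ranking value of 21.7 (8.12 to 153), against 18.5 for the other 4951 peaks. Of the strongest 25% of the Sp1 WT list 5.12% were shared, and the share went down to 4.50%, 3.57% and 2.33% in the weaker bands of the same size. The libraries differed in scale, as the medians of the shared sites were 10.2 and 18.9 in the replicates of the CTCF DBD and 21.9 and 36.0 in those of Sp1 WT. The other CTCF DBD peaks had medians of 10.2 and 17.1, so that in 1 replicate the shared sites were somewhat stronger. The other Sp1 WT peaks had 18.6 and 31.7. Across the 200 sites, Spearman's rho between replicates was 0.34 for the CTCF DBD and 0.83 for Sp1 WT, close to the 0.35 and 0.82 of the peaks that were not shared. The ranking values of a site in the CTCF DBD and Sp1 WT lists were nearly unrelated (rho = −0.05 over 200 sites), and 64 sites were in the upper 50% of both lists.

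**Figure D1:**
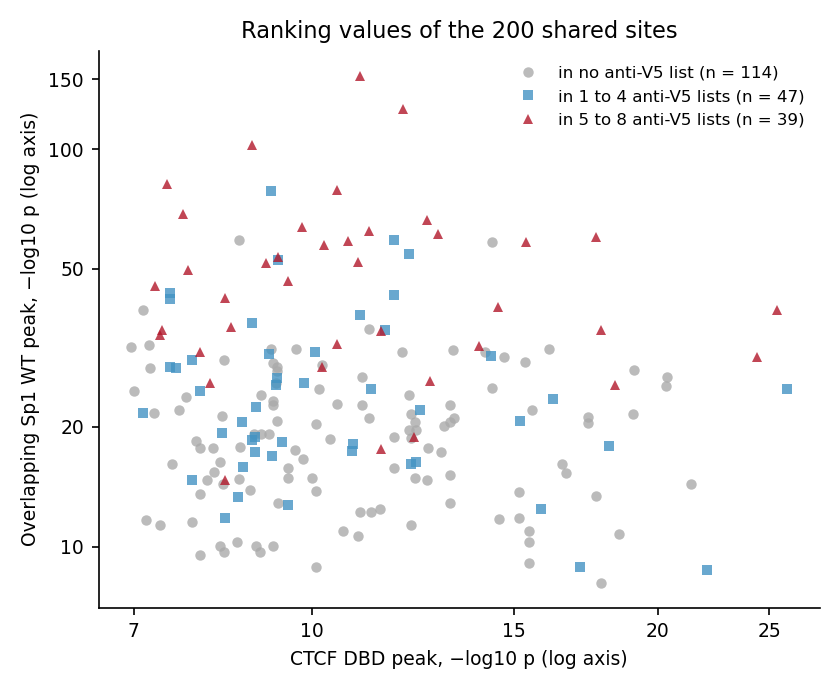
Ranking value (−log10 p, the smaller of the replicates' values, log axes) of each of the 200 shared sites in the CTCF DBD list (x) and of the Sp1 WT peak it overlaps (y). Symbols give the number of the 8 anti-V5 lists of endogenous Sp1 that hold the site, and the 39 sites in 5 to 8 of them sit higher on the Sp1 axis (median 45.4) than the 114 in none (median 18.8), with no such order on the CTCF DBD axis (10.5 and 10.3).

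The sites that ranked highest in both lists together, outside repeated and control-list sequence, all had a protein-coding start within 1000 bp. This was common, as 154 of the 168 shared sites outside repeated sequence (91.7%) had a start of some kind within that distance. ZNF808, which codes for a zinc finger protein, led them, and its CTCF DBD values were 25.4 and 44.7 in the replicates and its Sp1 WT values 39.5 and 52.9. At ELMO2, an engulfment and cell motility adaptor, the values were 15.3 and 22.5 for the CTCF DBD and 58.4 and 114 for Sp1 WT. MAML3, a coactivator of Notch signalling, had 14.4 and 15.4 for the CTCF DBD and 58.5 and 79.6 for Sp1 WT, in an intron 871 bp downstream of a start. This made it the only one of the leading 8 that no anti-V5 list held. QRICH1 had 17.8 and 35.0 for the CTCF DBD and 35.0 and 54.2 for Sp1 WT, with its summit 83 bp downstream of the start. At CA13, a carbonic anhydrase, the values were 24.4 and 36.6 for the CTCF DBD and 30.1 and 74.2 for Sp1 WT. CEP85 (a centrosomal protein), NXT1 (an mRNA export cofactor) and MTMR4 (a phosphoinositide phosphatase) completed the 8, with CTCF DBD ranking values of 14.5, 12.9 and 12.6 and Sp1 WT ranking values of 40, 61.2 and 66.4. The replicates of a factor ranked these 8 sites in different orders. Their Sp1 WT ranking values, by which they were picked in part, were all above the median of the shared sites.

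The summits of the lists lay close together at most sites, but not at the same base. The overlap rule limits this distance, so it is a description. The median distance between the CTCF DBD summit and the Sp1 WT summit was 98.5 bp (quartiles 33.0 and 221 bp), and 146 of the 200 sites (73.0%) had summits within 200 bp. The CTCF DBD summit was inside the Sp1 WT peak at 196 sites, and at 105 sites the whole CTCF DBD peak was. Shared CTCF DBD peaks had a median width of 660 bp against 544 bp for the others, and wider peaks meet others more easily. The smallest distances were 0 bp in the chromosome 16 satellite and 1 bp at 4 sites. These were KAT2B, a histone acetyltransferase, a site upstream of AMHR2, the receptor of anti-Müllerian hormone, and sites in repeated sequence on chromosome 10 and on an unlocalized scaffold. The AMHR2 site, named after its values were seen, had 1 GC box within 100 bp and was in the Sp1 DBD list. KAT2B had CTCF DBD values of 13.2 and 17.4 and Sp1 WT values of 12.9 and 19.8, and was in none of the other lists asked about. The largest distances were 1562 bp at LTBP4, a matrix protein that binds latent TGF-β, 991 bp at ZFP91, a zinc finger ubiquitin ligase, and 948 bp at MUS81, a structure-specific DNA endonuclease.

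The overlaps were rarely thin, with a median of 600.5 bp in common. The fewest overlapping bases were 70 at ZFP91 (chr11:58579347-58580083), nearest to a start of its readthrough transcript ZFP91-CNTF. That peak nevertheless had the highest CTCF DBD ranking value of all shared sites (replicate values 25.9 and 40.7). In the replicate where it had 40.7, the highest value of a shared site was 61.1. The next fewest were 137 of a 153 bp peak on an unplaced scaffold in repeated sequence. Just outside the rule, a CTCF DBD peak in an intron at VIM (chr10:17227690-17227889, replicate values 9.03 and 14.1) lay 165 bp from a Sp1 WT peak. The next nearest lay at a gap of 253 bp on an unlocalized scaffold, and 4 of the other 449 CTCF DBD peaks lay within 500 bp of a Sp1 WT peak.

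**Figure D2:**
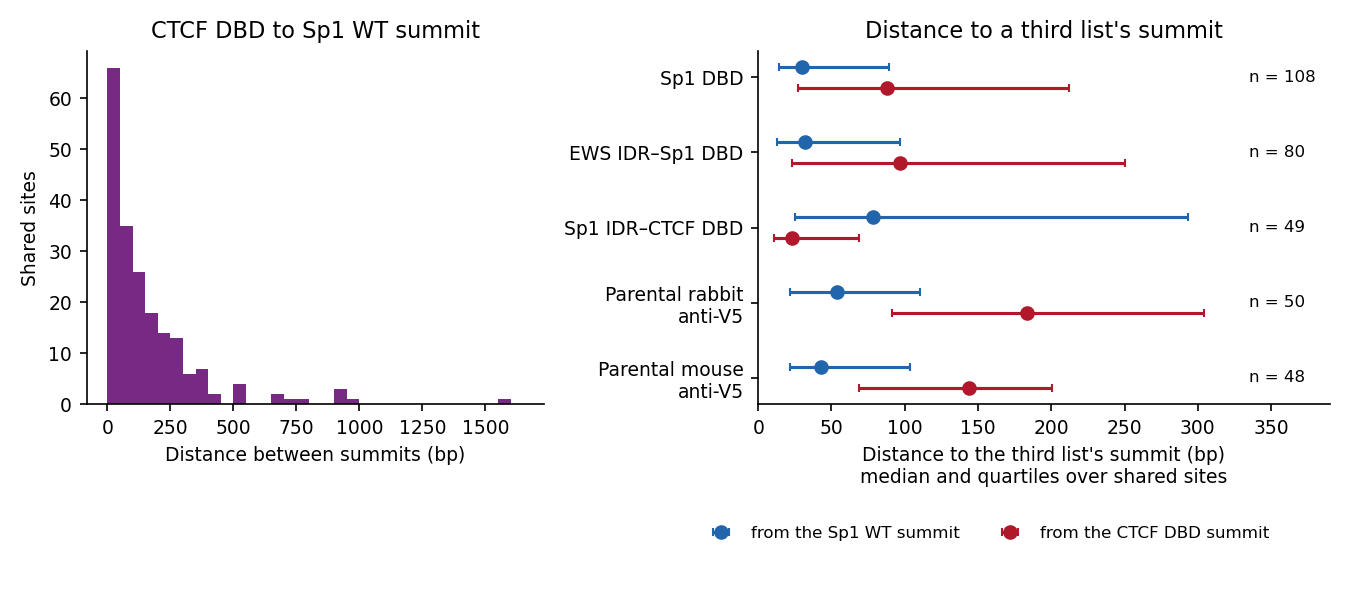
Left, number of shared sites by distance between the CTCF DBD and the Sp1 WT summit in 50 bp steps, with 104 of 200 sites at 100 bp or less. Right, median distance with quartiles from the Sp1 WT summit (blue) and from the CTCF DBD summit (red) to the summit of an overlapping peak in 5 further lists, over the shared sites found in that list. The blue median is the smaller in each list but that of the Sp1 IDR–CTCF DBD chimera, where it is 78.0 bp against 23 bp.

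Shared sites were promoter sites far more often than the rest of the CTCF DBD list. A start of transcription annotated in GENCODE lay within 1000 bp of the peak at 165 of the 200 shared sites (82.5%, 95% interval, 76.6 to 87.1%) and at 211 of the 449 other CTCF DBD peaks (47.0%, 42.4 to 51.6%), against 57.9% of the whole list. The difference was 35.5 percentage points (odds ratio 5.32). The sites were selected on a Sp1 WT peak, and 85.7% of all Sp1 WT peaks were promoter peaks. This contrast is therefore a description with no test. Among Sp1 WT peaks, the 200 shared peaks did not differ past the threshold of 0.05 from the other 4951 (82.5% against 85.8%, two-sided Fisher's exact test, adjusted p = 0.18 over the 16 tests made of shared sites). Repeated sequence moved with this share. It held 15% of the shared Sp1 WT peaks and 6.50% of the others, and 154 of the 168 shared sites outside repeats (91.7%) and 11 of the 32 inside them (34.4%) were promoter sites. Without repeated sequence the difference from the other Sp1 WT peaks was 3.35 points (Fisher's exact test, adjusted p = 0.25). With sites counted as shared only where the summits lay within 200 bp, promoter peaks were 113 of 146 against 4301 of 5005, a difference of −8.54 points that passed the threshold (Fisher's exact test, adjusted p = 0.0082).

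At 147 shared sites the CTCF DBD summit was within 1000 bp of a start of a protein-coding gene. The CTCF DBD summit had a median position of −11 bp from that start, negative being upstream (quartiles −206 and 89.5 bp), and the Sp1 WT summit of the same sites −89 bp (quartiles −218 and 63.5 bp). Neither was closer to the start as a rule, since the CTCF DBD summit was the nearer at 73 sites and the Sp1 WT summit at 74. Divergent promoters, with protein-coding starts on both strands within 1000 bp, made up 30 of these 147 sites (20.4%, 14.7 to 27.6%), against 15 of 159 (9.43%, 5.80 to 15%) of the other CTCF DBD peaks at such starts and 14.6% (13.5 to 15.7%) of the other Sp1 WT peaks. By annotation, the CTCF DBD summit fell outside annotated genes at 66 shared sites (33%, against 42.8% of the other CTCF DBD peaks) and in an intron at 50 (25%, against 35.9%). It fell in a UTR at 42 (21%, against 8.69%), in an exon of a noncoding transcript at 25 (12.5%, against 9.13%) and in a coding exon at 17 (8.5%, against 3.56%). These shares were not tested.

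**Figure D3:**
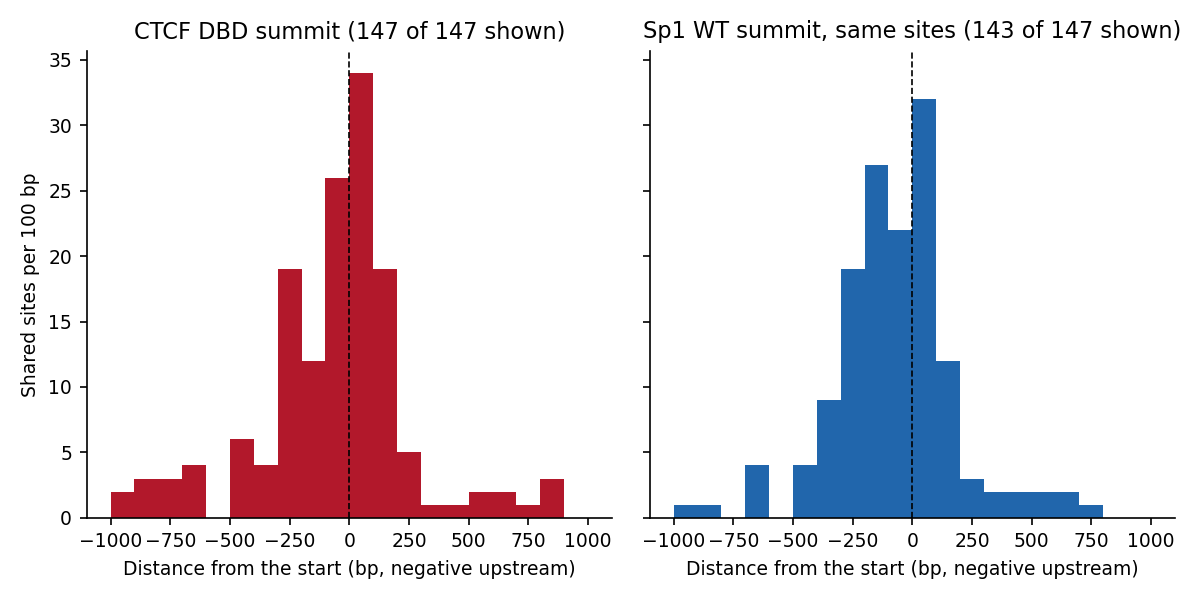
Position of the CTCF DBD summit (left) and of the Sp1 WT summit (right) relative to the nearest protein-coding start at 147 shared sites, in 100 bp steps, negative upstream, with Sp1 WT summits beyond 1000 bp not drawn. Both pile up at the start, with 61 CTCF DBD and 54 Sp1 WT summits within 100 bp of it.

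Genes with a start within 1000 bp of the summit were counted in groups set by symbol prefix (ZNF, PSM and the like), each of which held few sites, and no group was tested. Shares stand next to those of all CTCF DBD and all Sp1 WT peaks. Zinc finger factor genes were the most frequent of the groups counted, at 5 shared sites (2.5%), next to 1.23% of all CTCF DBD peaks and 2.68% of all Sp1 WT peaks. They were ZNF808, ZFP91, ZNF219, ZNF25 and the divergent pair ZNF146 and ZNF565. The transcription machinery held 3 sites (1.50%, next to 0.46% and 0.43%), at TAF5, a TFIID subunit, and at the Mediator subunit genes MED20 and MED11. TAF5 had CTCF DBD values of 12.3 and 14.4 and Sp1 WT values of 16.3 and 34.2, and its summits were 10 bp apart. MED20 shares its promoter with BYSL, a ribosome assembly factor, and there Sp1 WT was strong (58.9 and 76.7) and the CTCF DBD weaker (10.8 and 19.8). The prefixes UBE, USP and FBX of the ubiquitin system held 3 sites (1.5%, next to 0.46% and 1.03%), at USP27X, UBE2R2 and FBXL7. Splicing factors held 2 (1%, next to 0.46% and 0.54%), at HNRNPA2B1 and HNRNPDL, which code for RNA-binding proteins of the hnRNP class, and the Sp1 WT values at HNRNPA2B1 (53.4 and 102) were above those at HNRNPDL (23.2 and 60.4). The translation group held 2 (1%, next to 0.31% and 0.50%), at EIF2S1, an initiation factor subunit, and EEF1AKMT4, which codes for a methyltransferase of an elongation factor. Mitochondrial genes appeared at NDUFA6, a complex I subunit (respiratory chain, 0.5% of shared sites, next to 0.15% and 0.47%), and at a promoter shared by MRPS12, a mitochondrial ribosomal protein, and SARS2, the mitochondrial seryl-tRNA synthetase. The mitochondrial ribosomal group made up 0.5% (next to 0.92% and 0.49%) and the synthetases 0.5% (next to 0.15% and 0.21%). RPL39L was the cytosolic ribosomal protein gene among them (0.5%, next to 0.46% and 0.35%). At 0 shared sites were the histone prefixes (next to 0.31% and 0.14%), PSM of the proteasome (0.31% and 0.41%), SNOR, SCARNA and RNU of small RNAs (0% and 0.21%), and the CTCF and cohesin genes (0% and 0.12%). Prefixes miss related genes, and shared sites outside the counts, named after their values were seen, lay at TRAF6 and RFFL, which are ubiquitin ligases, at ADRM1, a ubiquitin receptor of the proteasome, and at a U2 small nuclear RNA gene.

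Shared sites had a GC box near the CTCF DBD summit more often than the other CTCF DBD peaks, and few of either had a CTCF core there. The box is much shorter than the core and far more frequent by chance, so that their shares are read each against its own background. A GC box lay within 100 bp of the CTCF DBD summit at 97 shared sites (48.5%, 41.7 to 55.4%) and at 104 other CTCF DBD peaks (23.2%, 19.5 to 27.3%), against 31% of all CTCF DBD peaks. The difference was 25.3 percentage points (odds ratio 3.12). Sp1 binds the GC box, which was near 70.2% of all Sp1 WT summits, and the sites were selected on a Sp1 WT peak. This contrast is therefore given with no test. In windows of the same size 2000 bp away the box was at 7.27%, and at the 146199 annotated starts of protein-coding genes, alternative ones included, at 36.0%. G and C made up a median of 63.4% of the window at shared sites and 57.7% at the other CTCF DBD peaks, and the part of base composition in the GC box share was not tested. The CTCF core was at 4 shared sites (2.00%, 0.78 to 5.03%) and at 21 other CTCF DBD peaks (4.68%, 3.08 to 7.04%), against 3.85% of all, a difference that did not pass the threshold (Fisher's exact test, adjusted p = 0.14). The core was at 0.25% of the windows 2000 bp away and 0.21% of the protein-coding starts. Searched over the whole peak, the core was at 15 shared sites and 75 other peaks, a difference of −9.20 points for the shared sites (two-sided Fisher's exact test, adjusted p = 0.0024). A core with at most 1 mismatch was near 9% of the shared summits and 13.8% of the other CTCF DBD summits, against 1.25% of the windows 2000 bp away.

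Next to the other Sp1 WT peaks, the shared ones had fewer GC boxes and more CTCF cores at the summit. Within 100 bp of the Sp1 WT summit, a GC box was at 120 of the 200 shared peaks (60%, 53.1 to 66.5%) and at 3494 of the 4951 others (70.6%, 69.3 to 71.8%), against 70.2% of all Sp1 WT peaks. The difference for the shared peaks was −10.6 points (odds ratio 0.63), and the longer box GGGGCGGGG gave 13.5% against 27.8%. With the GC box counted anywhere in the peak the difference was −3.23 points. The shared peaks were selected on a CTCF DBD peak, and a GC box was near 31% of all CTCF DBD summits. The GC box differences are therefore given with no test. The CTCF core was at 4 shared Sp1 WT peaks (2.00%) and at 13 others (0.26%), against 0.33% of the list (odds ratio 7.75). By the rule these shared peaks have a CTCF DBD peak, and the core was at 3.85% of all CTCF DBD peaks. This contrast is therefore given with no test. It rests on 4 peaks. With IDR of at most 0.01 or with the Sp1 WT list reduced to 649 peaks the core was at 0 of 30 shared peaks (−0.36 and −0.32 points). In the lower 50% of the Sp1 WT list it was at 1 of 75 shared peaks. Comparing the summits site by site, 80 shared sites had a GC box at both, 40 at the Sp1 WT summit alone, 17 at the CTCF DBD summit alone and 63 at neither.

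The 4 sites with a CTCF core near the CTCF DBD summit, printed above, were of modest strength. At PTDSS2, a phosphatidylserine synthase, the core lay 92 bp from the CTCF DBD summit and 109 bp from the Sp1 WT summit, and the CTCF DBD values were 10.5 and 11.6. TPR, a protein of the nuclear pore basket, had the core 30 bp from the CTCF DBD summit, in a coding exon, with values of 10.2 and 29.9, and was also in the chimera list. NAE1, a subunit of the NEDD8-activating enzyme, was the weakest (7.14 and 16.8), and the DDX11L16 site (12.3 and 17.7) was in repeated sequence. In all 15 shared sites with a core anywhere in the peak, the peaks held 16 cores, of which 13 were nearer to the CTCF DBD summit and 3 to the Sp1 WT summit.

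Many shared sites also had peaks of proteins that lack the Sp1 IDR. The Sp1 DBD list held 108 of the 200 (54.0%, 47.1 to 60.8%) and 33 of the other 449 CTCF DBD peaks (7.35%, 5.28 to 10.1%), against 21.7% of the whole CTCF DBD list. The EWS IDR–Sp1 DBD list held 80 shared sites (40%, 33.5 to 46.9%) and 33 others (7.35%, 5.28 to 10.1%), against 17.4%. Sp1 WT contains the same DBD, and the sites were selected on having a Sp1 WT peak, so these shares are a description with no test. Both lists held 68 shared sites, the Sp1 DBD list alone 40 and the EWS list alone 12. Among Sp1 WT peaks the shared ones were not set apart, as 55.0% of them and 48.4% of the others were in the Sp1 DBD list (48.7% of all, Fisher's exact test, adjusted p = 0.10), and 40.5% and 34.9% in the EWS list (35.1% of all, adjusted p = 0.14). In the lower 50% of the Sp1 WT list, by an alternative chosen after the data were seen, shared peaks were in the Sp1 DBD list 12.3 points more often (31 of 75 against 723 of 2493). No call is made of it, since the adjustment spans tests on which the rule of selection bears.

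Where the Sp1 DBD had a peak, its summit lay nearer to that of Sp1 WT at most sites. The Sp1 WT summit was the nearer to the Sp1 DBD summit at 72 of 108 shared sites (66.7%, 57.3 to 74.8%) and the CTCF DBD summit at 35, with median distances of 30.0 and 88.0 bp. For the EWS chimera it was 54 against 24 of 80 sites, with medians of 32.0 and 97 bp. These counts are descriptions of the sites with a peak in the list, and outside repeated sequence they were 65 against 27 and 50 against 18.

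The chimera that joins the Sp1 IDR to the CTCF DBD had a short list of 166 peaks, and 49 of them (29.5%) were at shared sites. It held 49 of the 200 shared sites (24.5%, 19.1 to 30.9%) and 71 of the other 449 CTCF DBD peaks (15.8%, 12.7 to 19.5%), against 18.5% of the list. The difference was 8.69 points (odds ratio 1.73). It was 7.65 points when peaks in repeated sequence were left out (38 of 168 against 53 of 354) and 6.84 when only promoter peaks were compared. Sp1 WT has the same IDR as the chimera, and the sites were selected on a Sp1 WT peak. These differences are therefore given with no test. Among Sp1 WT peaks the chimera list marked out the shared ones, with 49 of 200 (24.5%) against 24 of 4951 (0.48%) and 1.42% of all. This contrast is between peaks with and without a CTCF DBD peak, and the chimera carries the same DBD, so it is given with no test. At the 49 sites the chimera's summit lay a median of 23 bp from the CTCF DBD summit and 78.0 bp from the Sp1 WT summit, and the CTCF DBD summit was the nearer at 37 (75.5%, 61.9 to 85.4%). The shared sites in the chimera list had a median CTCF DBD ranking value of 11.8, against 9.54 for the other 151, while their Sp1 WT medians were 22 and 21.7.

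**Figure D4:**
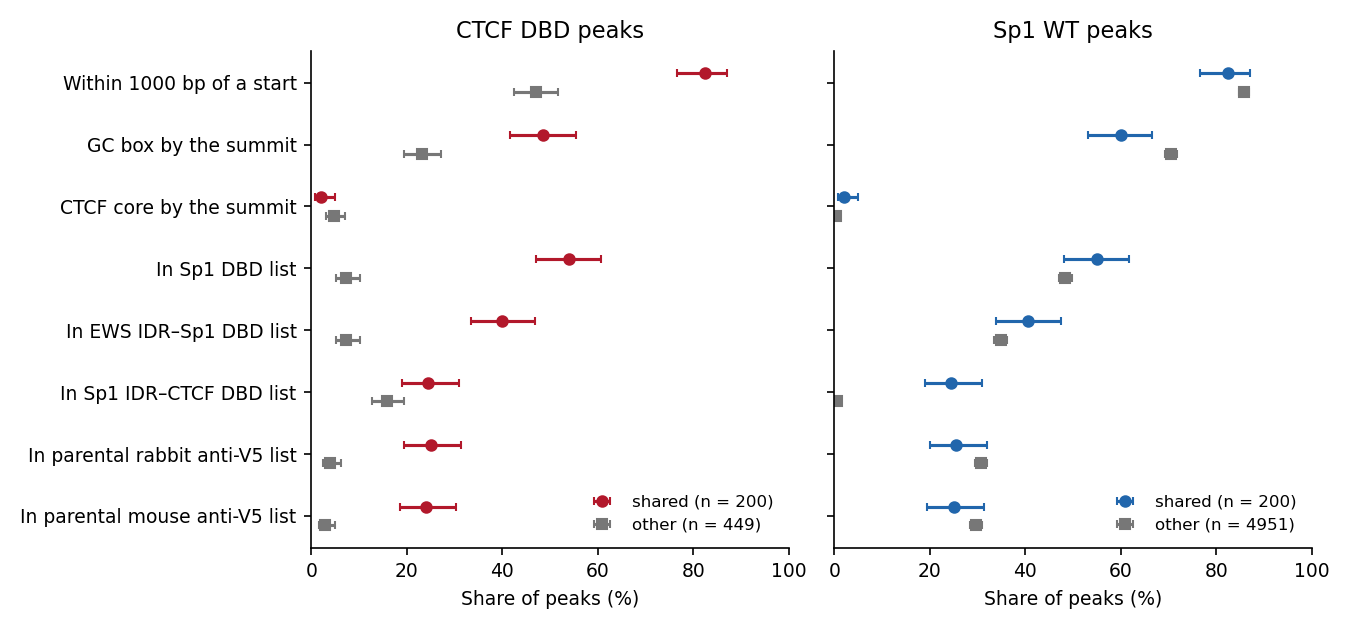
Share of peaks, with 95% Wilson intervals, that lie within 1000 bp of a start of transcription, have a GC box or CTCF core within 100 bp of the summit, or overlap a peak of 5 further lists. Left, the 200 shared sites (red) against the other 449 CTCF DBD peaks (grey), and right, the 200 shared Sp1 WT peaks (blue) against the other 4951 (grey). On the left all shares but that of the CTCF core are higher at shared sites, and on the right the chimera list shows the widest gap, 24.5% against 0.48%.

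Endogenous Sp1, read by anti-V5, had peaks at more of the shared sites than of the other CTCF DBD peaks. In the parental line, rabbit anti-V5 peaks were at 50 of them (25.0%, 19.5 to 31.4%) and at 18 of the other CTCF DBD peaks (4.01%, 2.55 to 6.25%), against 10.5% of the list. Mouse anti-V5 peaks were at 48 (24.0%, 18.6 to 30.4%) and at 13 others (2.90%, 1.70 to 4.89%), against 9.4%. As anti-V5 reads Sp1 too and the sites were selected on a Sp1 WT peak, these shares have no test either. Compared with the other Sp1 WT peaks, the shared ones did not differ past the threshold. There, 25.5% against 30.8% were in the rabbit anti-V5 list (30.6% of all, Fisher's exact test, adjusted p = 0.14) and 25.0% against 29.8% in the mouse anti-V5 list (29.6% of all, adjusted p = 0.17). With summits within 200 bp the rabbit anti-V5 difference was −11.0 points and passed (29 of 146 against 1546 of 5005, Fisher's exact test, adjusted p = 0.0073), and with IDR of at most 0.01 the differences were 5.98 and 6.31 points for rabbit and mouse anti-V5. Among the upper 50% of the Sp1 WT list, in an alternative chosen after the data were seen, the shared peaks were less often in the parental anti-V5 lists. With rabbit anti-V5 it was 44 of 125 against 1228 of 2458 (−14.8 points), and with mouse anti-V5 44 of 125 against 1220 of 2458 (−14.4 points). No call is made of either, since the adjustment spans tests on which the rule of selection bears.

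The V5 lists of the other lines gave a similar range. The line with the Sp1 IDR–CTCF DBD chimera had anti-V5 peaks at 60 shared sites with the rabbit and at 35 with the mouse antibody (30% and 17.5%), the Sp1 IDR–LacI line at 54 and 45 (27% and 22.5%), and the Sp1 WT line at 43 and 33 (21.5% and 16.5%). The same 6 lists held from 3.12% to 3.79% of the other CTCF DBD peaks and from 21.3% to 33.5% of the other Sp1 WT peaks. These lists differ in length and were not tested against each other. In all, 86 shared sites (43.0%) were in at least 1 of the 8 anti-V5 lists and 17 in all 8, against 42 (9.35%) of the other CTCF DBD peaks in at least 1. The counts for the other Sp1 WT peaks, and for other CTCF DBD peaks in all 8, are not given here. As with the Sp1 DBD, the parental anti-V5 summit was nearer to the Sp1 WT summit than to the CTCF DBD summit, at 42 of 50 sites with the rabbit antibody (84.0%, 71.5 to 91.7%) and at 38 of 48 with the mouse antibody (79.2%, 65.7 to 88.3%). The median distances to the CTCF DBD summit were 184 and 144 bp.

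A set of 7 shared sites was found in every one of the 11 lists asked about, namely the anti-FLAG lists of the Sp1 DBD, EWS IDR–Sp1 DBD and Sp1 IDR–CTCF DBD and the 8 anti-V5 lists. These were ZNF808, CEP85, BYSL, POMT2, MUC3A, NHEJ1 and HINT2, all with a protein-coding start within 1000 bp. Their Sp1 WT ranking values ran from 39.5 at ZNF808 to 79.2 at POMT2, a protein O-mannosyltransferase, above the median of the shared sites. Their CTCF DBD values did not stand out in the same way. At HINT2, a mitochondrial nucleotide hydrolase, the CTCF DBD values were 7.72 and 29.5 and the Sp1 WT values 68.7 and 108, and at NHEJ1, a factor of DNA end joining, they were 7.80 and 22.1 and 49.8 and 66.8. HINT2 was also the strongest of the 7 in the parental rabbit anti-V5 list (75) and had no GC box within 100 bp of the CTCF DBD summit, while POMT2 and MUC3A, a mucin gene, had 3 each.

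At the other end, 42 shared sites were in none of the 11 lists. Neither this count nor that of sites in every list is given here over all CTCF DBD or all Sp1 WT peaks. Whether the shared sites differ from either list in these counts was not tested. Their median Sp1 WT ranking value was 17.5, against 20.5 for the 97 sites in 1 to 3 lists and 34.9 for the 61 sites in 4 to 11. Their median CTCF DBD value of 10.6 was close to the 9.84 and 10.5 of the other classes. Promoter sites made up 66.7%, 84.5% and 90.2% of these classes, and a GC box was near the CTCF DBD summit in 35.7%, 48.5% and 57.4%. Repeated sequence held 21.4%, 13.4% and 16.4% of them. The sites in none of the lists included KAT2B, LTBP4 and FBXL7, an F-box subunit of ubiquitin ligases.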

How the data were processed

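CUT&RUN peak lists of 38 samples in 19 groups, mapped from the sample labels, were used as deposited. Per the labels' processing notes, the authors used cutadapt 2.6, Bowtie2 2.3.5.1, SAMtools 1.9, deepTools 3.5.4, MACS3 (given as 2.2.7.1) and bedtools 2.27.1 with hg38. By the study's methods, peaks were called per replicate against merged controls and filtered by IDR over both replicates. The −log10 p-values of each peak and replicate are those the authors deposited, and their order relative to the labels is not stated. The deposited score, −log10 of the global IDR, set the stricter thresholds. The 6 deposited tables of differential regions hold the authors' own comparisons and were not used. Read numbers were not analysed here, so the depth is unknown and gives no limit.

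Peaks overlapped where they shared 1 bp or more, and bedtools 2.31.1 returned the same 200 sites. Starts came from GENCODE 44, sequence from hg38, and motifs were searched on both strands within 100 bp of summits. The CTCF core is a degenerate consensus given by name. Shares have 95% Wilson intervals (counting error over peaks). Tests were two-sided Fisher's exact tests (SciPy 1.17.1), with Benjamini-Hochberg adjustment over 16 tests and a threshold of 0.05. Those on which the rule of selection bears most directly are not printed. They stay in the adjustment, which makes it less strict for the printed ones. The rule may bear in part on the printed tests too. In data simulated at the numbers of shared and other CTCF DBD peaks, 4.20% of tests without a difference had an unadjusted p under 0.05. With shares 20 points apart 100% did. Smaller differences, rare motifs and the Sp1 WT side were not simulated.

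Sites named were the 8 best by summed rank percentile in both lists outside repeated and control sequence, those with a CTCF core, those in all 11 lists, the 3 smallest and 3 largest summit distances, the 2 with fewest overlapping bases, the 2 nearest peaks outside, and members of the gene groups. Each took the nearest start, protein-coding first within 1000 bp. The sites, lists and tests were chosen with earlier results of these data known. Alternatives are listed with their effect further on. Scripts ran in Python 3.11.15 with matplotlib 3.10.9, numba 0.67.0, pysam 0.24.0 and NumPy 2.4.6.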

Additional observations from a re-analysis of the deposited data

How the results depend on the processing

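Of 212 alternative values over 19 results, 171 kept their direction and their side of the threshold or moved by less than their interval. The count includes the results given above with no test, on which the rule of selection bears. It therefore does not measure how stable the others are. Values below are shared minus other, in percentage points, unless said otherwise, and the cause of each change was not tested. With IDR of at most 0.05, the shared share of the Sp1 WT list was 2.96% and the chimera list on the CTCF DBD side was at 6.65. The Sp1 DBD and EWS lists on the Sp1 WT side turned to −2.55 and −1.06. With IDR of at most 0.01, which leaves 30 shared sites, the shared shares were 22.6% and 1.17% and the median summit distance 53.5 bp. The chimera list was at 0.29 and the GC box on the Sp1 WT side at −15.0. On that side the CTCF core (−0.36), the Sp1 DBD (−3.99), EWS (−6.21) and rabbit and mouse anti-V5 lists (5.98 and 6.31) changed sign. With summits within 200 bp of each other the shares were 22.5% and 2.83%, the median distance 57.0 bp and the chimera list 7.07. Promoter (−8.54) and rabbit anti-V5 (−11.0) on the Sp1 WT side then passed the threshold. Without repeated sequence the chimera list was at 7.65 and promoter on the Sp1 WT side turned to 3.35. With the Sp1 WT list reduced to 649 peaks, 30 sites were shared (4.62% of either list), the median distance was 156 bp and the chimera list was at 8.57. Promoter (3.19), GC box (0.15) and CTCF core (−0.32) on the Sp1 WT side changed sign. Among promoter peaks alone the chimera list was at 6.84, and with summits matched within 200 bp at 7.08. In the upper 50% of the Sp1 WT list the GC box was at −8.19, the Sp1 DBD and EWS lists turned to −4.86 and −3.48, and rabbit and mouse anti-V5 were at −14.8 and −14.4. In the lower 50%, the differences were −9.90 for promoter, 12.3 for the Sp1 DBD list and 1.05 for the CTCF core. No call is made in either part of the list. Searched over whole peaks, the GC box on the Sp1 WT side was at −3.23 and the CTCF core on the CTCF DBD side passed (−9.20). The splits of the Sp1 WT list and the start distance from the summit were chosen after seeing the data. No paired analysis was possible because each list merges both replicates, and for the same reason no replicate could be left out.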

Other observations

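Other elements of promoters were counted in the same windows around the CTCF DBD summit, with no test. The ETS core CCGGAA was at 12.5% of the shared sites and 7.57% of the other CTCF DBD peaks, next to 13.5% of protein-coding starts. The NRF1 core GCATGCGC was at 3% and 0.67%. TATAAA was at 1.00% of the shared sites and 8.02% of the other CTCF DBD peaks, next to 7.06% of protein-coding starts and 9.27% of windows 2000 bp away. CCAAT did not separate the groups (20.5% and 21.4%).

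The lists of LacI, mutant Sp1 and Sp1 IDR–LacI held few shared sites, but larger shares of them than of the other Sp1 WT peaks. They held 2%, 2% and 2.5% of the shared Sp1 WT peaks and 0.14%, 0.16% and 0.71% of the others, with no test. LacI anti-FLAG peaks were at 4 of the 200 shared sites (2.00%) and at 19 of the other CTCF DBD peaks (4.23%), mutant Sp1 at 4 (2.00%) and 15 (3.34%), and Sp1 IDR–LacI at 5 (2.5%) and 18 (4.01%). The rabbit anti-FLAG list of the parental line held 0 shared sites. Of the 32 shared sites in repeated sequence, 16 (50.0%) were in the Sp1 DBD list and 15 (46.9%) in an anti-V5 list, next to 92 (54.8%) and 71 (42.3%) of the 168 outside it.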
